A study of Caenorhabditis elegans with 12 samples.

Results

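RNA from set-25 mutant embryos of Caenorhabditis elegans was compared with RNA from wild-type embryos, across genes and across families of repeated DNA. The comparison holds 6 of the 12 libraries of the study: 3 from set-25(n5021) III, columns set-25 a, b and c of the count tables, and 3 from the wild-type strain N2 (Bristol), columns N2 a, b and c. The columns were taken by genotype from their names. The other 6 libraries are labelled met-2(n4256) III and met-2 set-25, the double mutant, and they are used below only for a direct comparison. All were early embryos from before the bean stage, of about 1 to 300 cells per the labels, from worms kept at 20 °C and collected 60 to 65 h after synchronization at the first larval stage. Total RNA was depleted of ribosomal RNA before sequencing. The labels name 2 independent biological replicates, yet 3 libraries stand for each genotype. Some of the spread among libraries, and of what the p-values measure, may be technical.

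Methylation of lysine 9 of histone H3 (H3K9) marks silent chromatin. In the worm embryo the methyltransferase MET-2 makes the mono- and dimethylated forms, and SET-25 makes the trimethylated form and gathers at the nuclear periphery with the chromatin it marks. The marked regions lie mostly on the chromosome arms and hold transposons, tandem repeats and genes that are silent in early cells. The comparison asks which RNAs change in level when SET-25 is lost.

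The 3 set-25 libraries held 16929810 to 23924919 gene counts, and the 3 N2 libraries 41033729 to 52683919. Depth thus went with genotype, so an effect of depth, or of a sequencing batch that follows it, cannot be told apart from that of the mutation. The set-25 libraries also differed among themselves. Spearman correlations across 12884 genes were 0.959 to 0.989 between set-25 libraries, lowest for a and c, and 0.992 to 0.996 between N2 libraries. Levels are given as CPM, counts scaled to a common library size of 1000000. The median SD of log2 CPM over 3 libraries was 0.329 in set-25 and 0.155 in N2. Set-25 library a lay nearest to N2 and library c farthest, with Spearman correlations to the 3 N2 libraries of 0.96 to 0.97 for a and 0.912 to 0.939 for c. In bulk libraries, fewer cells of a type and less RNA per cell cannot be told apart.

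The targeted gene was lower in each set-25 library. set-25 (Y43F4B.3, chromosome III, 13283824 to 13293090 in WBcel235) had 36.4, 40.7 and 38.8 CPM in set-25 libraries a, b and c, against 180.4, 186 and 219 CPM in N2 libraries a, b and c, in counts scaled by the trimmed mean of M-values (TMM). The log2 change was -2.34 (SE 0.1, adjusted p = 0.00035) by edgeR's quasi-likelihood test with Benjamini-Hochberg adjustment over all genes tested, which gives every adjusted p below. The groups did not overlap, and measurable RNA of the locus was kept in the mutant. met-2, the gene of the other H3K9 methyltransferase, had 298, 368 and 332 CPM in set-25 embryos and 314, 331 and 321 CPM in N2 embryos, and its log2 change (0.05, SE 0.09, adjusted p = 0.79) did not reach the threshold of 0.05.

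Of 12884 genes with enough counts to be tested, 1868 (14.5%) rose and 2175 (16.9%) fell in set-25 embryos. The median log2 change was 2.03 among the rises, -0.96 among the falls and 0.02 over all genes tested. At least 2-fold changes numbered 1566 upward and 1013 downward. The genes that rose had a median of 0.725 CPM in N2 and those that fell 88.3 CPM. A gene close to 0 in N2 was tested only where set-25 was high enough to pass the filter on low counts, so the filter sets part of these sizes and levels. Set-25 and N2 libraries did not overlap in 1829 of the genes that rose and 2172 of those that fell. With 3 libraries a group this follows largely from the call itself. The share without overlap over all genes tested is not given here, so these counts add no support to the calls.

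The set-25 libraries shared the falls more closely than the rises. They lay within 1.5-fold of each other in 1297 of the 2175 genes that fell (59.6%) and in 374 of the 1868 that rose. Among genes that rose, library c was the farthest from N2 in 86.7% and library a the nearest in 80.8%, and the median ratio of library c to library a was 2.81. Among genes that fell that ratio was 0.99. In N2, library c held the lowest level of 67.6% of the genes that rose and the highest level of 65.7% of those that fell. Without set-25 library a, 3517 genes rose and 3526 fell; without b, 1036 and 1627; and without c, 1250 and 1755. Without N2 library a, b or c, 532, 851 and 674 rose and 1264, 1366 and 1189 fell. 443 rises and 1104 falls were called in all 6 of these fits. Scaling by library totals alone moved the median of all genes to 0.32 and the calls to 3771 rises and 1274 falls, 74.7% of calls upward where TMM gave 46.2%. Changes below are relative to the TMM scale.

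**Figure D1:**
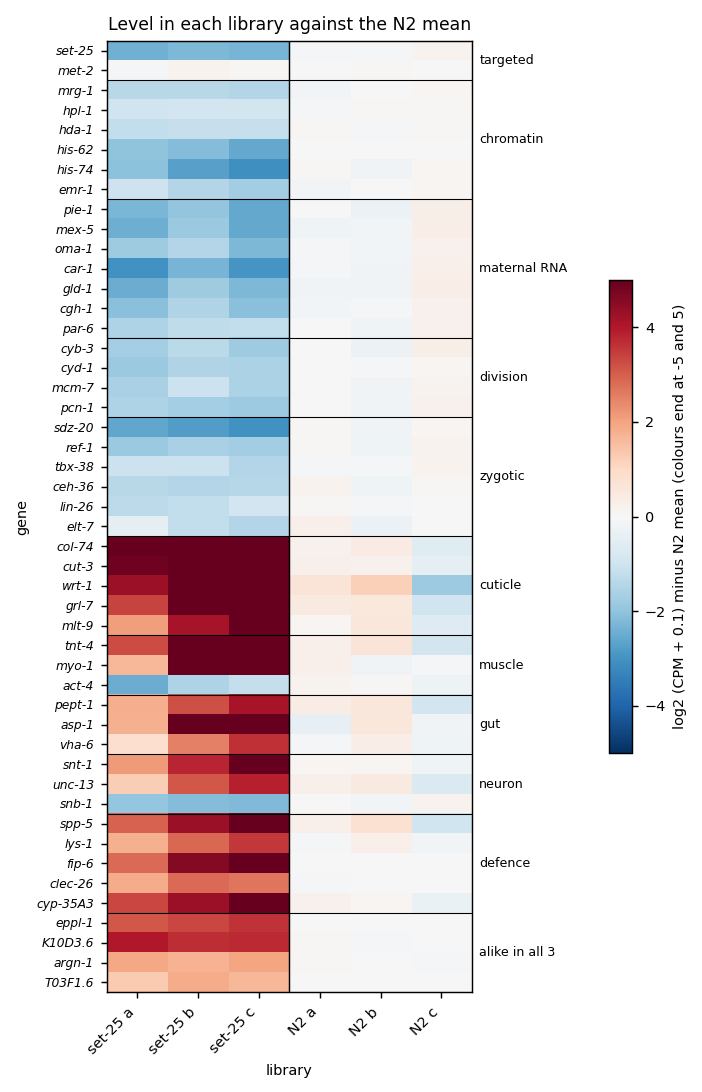
Level of selected genes (rows, grouped by role) in the 3 set-25 libraries (left columns) and the 3 N2 libraries (right columns), as log2 of CPM against the N2 mean, red above it and blue below. Maternal, chromatin and division genes are blue in all 3 set-25 libraries. Cuticle, muscle, gut and neuron genes, except act-4 and snb-1, are palest in set-25 a and deepest in set-25 c, and the last 4 genes are alike in all 3.

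Collagens and cuticlins, genes of the cuticle, held 6 of the 17 widest rises. The cuticle is the collagen coat that the epidermis secretes over the body, first late in embryogenesis, beyond the stages the labels give here. Of 56 tested col- collagen genes, 24 rose and 2 fell, with a median log2 change of 0.60. col-74 had 16.51, 171 and 312 CPM in set-25 embryos, against 0.124, 0.161 and 0.0274 CPM in N2 embryos (log2 change 10.56, SE 1.35, adjusted p = 0.00257), the highest of all genes called. col-165 had 17.9, 129.5 and 265 CPM in set-25, against 0.104, 0.483 and 0.0548 CPM in N2 (log2 change 9.35, SE 1.34, adjusted p = 0.00291). For both collagens library a held under 20 CPM and libraries b and c well over 100, while every N2 library was under 1 CPM. At such N2 levels a gene could pass the filter on low counts only through set-25, so the calls of both are no result. The same holds for col-14 and col-65, and for other genes too low in N2 to pass without set-25. Those named below include grl-5, grl-7, grl-15, ptr-16, lon-3, myo-1, asp-1, snt-1, nlp-29, nlp-30, ttr-37, ttr-46, lys-1, spp-5, asp-5, hsp-43, C50D2.1, spia-1 and tba-5. Such genes still enter the counts of rises per list. col-14 and col-65 followed, with log2 changes of 7.71 (SE 1.21, adjusted p = 0.004) and 7.92 (SE 1.14, adjusted p = 0.00381). The 2 collagens that fell were col-99, with 12.57, 21 and 18.4 CPM in set-25 and 35.1, 42.5 and 40.02 CPM in N2, and col-176, with 0.0386, 0.0399 and 0.271 CPM in set-25 and 0.725, 0.724 and 0.657 CPM in N2, at a level close to 0 in both. Without set-25 library a, 41 col- genes rose; without b 19 did, and without c 20.

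Cuticlins, the non-collagen ribbon proteins of the cuticle, rose in 15 of 27 tested genes and fell in none, with a median of 1.38. cut-3 had 8.37, 37.8 and 75.5 CPM in set-25, against 0.249, 0.241 and 0.11 CPM in N2 (log2 change 7.61, SE 0.97, adjusted p = 0.00219). cut-2 had 4.4, 39.5 and 58.9 CPM in set-25, against 0.186, 0.483 and 0.11 CPM in N2 (log2 change 7.04, SE 1.26, adjusted p = 0.00467). Again the lowest set-25 library, a, stood clear of the highest N2 library for both, but both could pass the filter on low counts only through set-25. Without set-25 libraries a, b and c in turn, 21, 9 and 10 cuticlin genes rose. Hedgehog-related genes, secreted proteins and their patched-related receptors that worms use in epidermis and molting, rose in 21 of 58 and fell in 2, with a median of 1.12. wrt-1 had 12.305, 33.4 and 67.7 CPM in set-25, against 0.911, 1.37 and 0.0821 CPM in N2 (5.57, SE 1.25, adjusted p = 0.00596), and grl-7 had 2.51, 15.4 and 29.1 CPM in set-25, against 0.249, 0.268 and 0.0274 CPM in N2 (6.37, SE 1.21, adjusted p = 0.00582), the bracketed values being log2 changes. grl-5, grl-15 and the patched-related receptor gene ptr-16 rose by 8.45, 5.93 and 6.8 on the log2 scale. The 2 that fell were grd-7, at 0.347, 0.199 and 0.487 CPM in set-25 and 0.746, 0.724 and 1.18 CPM in N2, and ptr-2, at 100.5, 130.3 and 115 CPM in set-25 and 139, 163 and 175 CPM in N2. Without set-25 library a, 41 of the hedgehog-related genes rose; without b 14 did, and without c 17.

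**Figure D2:**
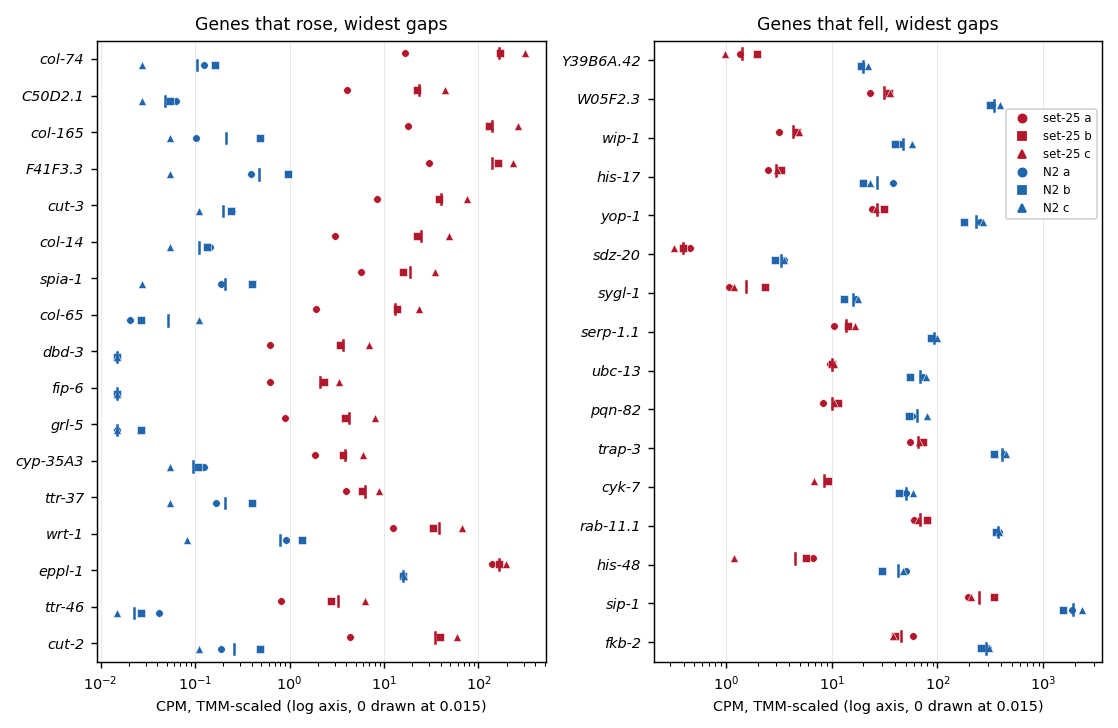
CPM (log axis) in each of the 3 set-25 libraries (red) and 3 N2 libraries (blue) for genes with the widest gap between groups, ranked separately with and without a symbol. Those that rose are on the left and those that fell on the right. Bars are group means and a level of 0 is drawn at the left edge. Set-25 library a (circles) is the lowest of the 3 set-25 libraries in all 17 genes that rose, and the set-25 points lie close together for most genes that fell.

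Not every epidermal gene moved upward. The collagens of the annular furrows and of body shape (dpy-, rol-, sqt-, lon- and bli- genes) rose in 2 of 12, with a median of 0.94: lon-3 had 1.23, 3.19 and 7.96 CPM in set-25, against 0.207, 0.51 and 0.0274 CPM in N2 (4.03, SE 1.08, adjusted p = 0.0181), and dpy-14 had 1046, 1354 and 1957 CPM in set-25, against 763, 809 and 467 CPM in N2 (1.1, SE 0.36, adjusted p = 0.0277). The 2 of 12 are 16.7%, near the 14.5% of all genes that rose. Without set-25 library a, 7 of these collagens rose, and without b or c 1 did. sqt-3, a collagen of the embryonic cuticle, stood at 139.6, 438 and 639.7 CPM in set-25 and 479, 506 and 292 CPM in N2, and library a was below every N2 library where library c was above them. Collagen-processing enzymes rose in 2 of 16 (dpy-31, 1.24, and phy-2, 1.03) and fell in 2 (dpy-11, -0.75, and pdi-2, -0.85). Each count is 12.5%, below the shares of all genes, and 9 rose without set-25 library a. Among 23 apical matrix genes 3 rose (13%) and 2 fell (8.7%), also below those shares. mlt-9, needed for molting, had 3.66, 15.5 and 31.3 CPM in set-25, against 0.849, 1.21 and 0.465 CPM in N2 (4.31, SE 0.98, adjusted p = 0.00827), and let-653, a matrix gene of tubes, had 15, 23.1 and 26.9 CPM in set-25, against 62.3, 55.6 and 48.6 CPM in N2 (-1.36, SE 0.27, adjusted p = 0.00591). The others called were lpr-1 (2.41), daf-6 (2.29) and egg-6 (-1.1), and 6 rose and 5 fell without set-25 library a.

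The transcription factors that set epidermal fate went the other way from the cuticle genes: 8 of 11 fell and 1 rose, with a median log2 change of -1.03. lin-26, which every epidermal cell needs, had 127, 134 and 161 CPM in set-25, against 325, 301 and 311 CPM in N2 (-1.15, SE 0.11, adjusted p = 0.00138). egl-18, a GATA factor of the seam cells, had 132, 187 and 174 CPM in set-25, against 348, 403 and 397 CPM in N2 (-1.22, SE 0.17, adjusted p = 0.00252), and the nuclear receptor gene nhr-25 had 62.1, 77.2 and 81.1 CPM in set-25, against 152, 156 and 142 CPM in N2 (-1.03, SE 0.12, adjusted p = 0.00237). All 3 set-25 libraries lay below all 3 N2 libraries for these genes, and library c was no farther from N2 than library a. The 1 that rose was grh-1, the grainyhead factor of late epidermis, with 5.52, 23.2 and 33.1 CPM in set-25 and 4.37, 4.64 and 1.59 CPM in N2, a rise that 1 of the 6 leave-one-out fits called.

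Contractile genes of muscle moved in both directions. Of 42 tested myosin and sarcomere genes 15 rose and 5 fell, with a median log2 change of 0.88, and without set-25 libraries a, b and c in turn 30, 7 and 9 rose. tnt-4, a troponin T, had 3.66, 17.6 and 36.5 CPM in set-25, against 0.373, 0.51 and 0.11 CPM in N2 (5.83, SE 1.1, adjusted p = 0.00555). myo-1, a myosin heavy chain of the pharynx, had 1.31, 15.8 and 27.8 CPM in set-25, against 0.435, 0.295 and 0.329 CPM in N2 (5.38, SE 1.34, adjusted p = 0.00957), and library a was nearest to N2 for both. The 5 that fell were act-1, act-2, act-3, act-4 and unc-60, the last a cofilin that severs actin filaments. act-2 had 240.2, 374 and 284 CPM in set-25, against 682, 689 and 885 CPM in N2 (-1.33, SE 0.22, adjusted p = 0.0044), and act-4 had 122, 232 and 298 CPM in set-25, against 772, 712 and 577 CPM in N2 (-1.66, SE 0.4, adjusted p = 0.00874). The actin genes are near-identical in sequence, and counts between them may be split. The muscle and pharynx fate regulators fell in 2 of 12 (16.7%, where 16.9% of all genes fell), ceh-51 (-1.0) and pal-1 (-0.67), and 6 fell without set-25 library a.

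Differentiation genes of the gut rose in 9 of 24 and fell in none, with a median of 1.00. asp-1, an intestinal aspartyl protease, had 1.58, 15 and 21.1 CPM in set-25, against 0.269, 0.617 and 0.329 CPM in N2 (4.95, SE 1.2, adjusted p = 0.00915). pept-1, the intestinal peptide transporter, had 3.7, 9.81 and 18.4 CPM in set-25, against 1.28, 1.48 and 0.465 CPM in N2 (3.29, SE 0.83, adjusted p = 0.0115). elt-2, the GATA factor that maintains gut fate, had 23.3, 22.4 and 34.3 CPM in set-25 and 37.2, 36.7 and 33.2 CPM in N2, a log2 change of -0.42 (adjusted p = 0.128). Without set-25 library a, 21 of the 24 rose, and without b or c 6 did. The cascade upstream of elt-2 fell instead, in 5 of 7 tested genes with a median of -1.01. skn-1, the maternal factor at its start, had 56.1, 78.6 and 65.4 CPM in set-25, against 190.5, 169 and 214 CPM in N2 (-1.52, SE 0.17, adjusted p = 0.00125). med-1 (-1.37), end-3 (-0.84), end-1 (-0.79) and elt-7 (-1.01), which act in that order downstream of it, also fell. Of these 4, each was called in only 1 or 2 of the 6 leave-one-out fits, and without set-25 library b 1 gene of the cascade fell.

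Neuronal genes were mixed. Of 36 genes of synaptic vesicles and neurons 11 rose and 5 fell, with a median of 0.54. snt-1, the synaptotagmin of synaptic vesicles, had 1.5, 5.06 and 11.3 CPM in set-25, against 0.29, 0.295 and 0.219 CPM in N2 (4.44, SE 0.84, adjusted p = 0.00622), and unc-13, which primes vesicles for release, had 5.01, 18.7 and 32.6 CPM in set-25, against 2.53, 2.9 and 1.23 CPM in N2 (3.07, SE 0.88, adjusted p = 0.0145). snb-1, the synaptobrevin, which is also present outside neurons, had 65.5, 55.8 and 54.3 CPM in set-25, against 245, 228 and 281 CPM in N2 (-2.1, SE 0.12, adjusted p = 0.000382). snt-1 could pass the filter on low counts only through set-25, so its call is no result. The set-25 libraries differed widely in the genes that rose and little in snb-1. unc-57 (-1.11), unc-76 (-0.96), unc-11 (-0.93) and unc-119 (-0.85) fell as well. Without set-25 libraries a, b and c in turn, 19, 3 and 8 neuronal genes rose. flp and nlp neuropeptide genes rose in 7 of 40 (17.5%) and fell in 6 (15%), near the shares of all genes, with a median of 0.24. Without set-25 library a 23 rose and 9 fell. nlp-29 (3.84) and nlp-30 (3.12), epidermal antimicrobial peptides, were among the rises, and flp-10 (-2.25) and nlp-11 (-1.61) among the falls. nlp-29 and nlp-30 could pass the filter on low counts only through set-25, so their calls are no result. Insulin-like peptide genes fell in 5 of 11 and rose in none, with a median of -1.04. ins-34 had 4.47, 3.23 and 1.95 CPM in set-25, against 24.9, 20.04 and 22.9 CPM in N2 (-2.8, SE 0.35, adjusted p = 0.00162), and ins-13 (-1.8), ins-2 (-1.59), ins-17 (-1.28) and ins-30 (-1.04) followed, of which 3 fell without set-25 library b.

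Markers of stage and cell type moved with these groups. The summed level of 14 maternal and germline markers was 1750, 2060 and 1490 CPM in set-25 libraries a, b and c, against 4260, 4190 and 5320 CPM in N2, and 10 fell and none rose. The 10 early zygotic markers summed to 438, 404 and 338 CPM in set-25, against 453, 475 and 529 CPM in N2, and 7 fell. The 7 body wall muscle markers summed to 172, 617 and 890 CPM in set-25, against 337, 354 and 163 CPM in N2, and 1 rose. The maternal sums of all 3 set-25 libraries thus lay below those of N2. The early zygotic sums did too, narrowly for library a, and pes-10, which was not called, was the largest part of them. The longer list of 27 early zygotic genes summed to 3093, 2939 and 2502 CPM in set-25, against 2802, 2930 and 3164 CPM in N2, and the groups overlapped. The muscle sum of set-25 library a lay within the N2 range and those of b and c above it. Pharynx markers summed to 8.56, 37.7 and 62.6 CPM in set-25, against 9.49, 9.42 and 5.53 CPM in N2, with 3 of 4 risen. Intestine markers summed to 57.2, 122 and 190 CPM in set-25, against 83.6, 86.2 and 62.7 CPM in N2, with 4 of 7 risen. In both tissues set-25 libraries b and c were above N2 and library a was not. The 7 epidermis markers summed to 860, 1530 and 2000 CPM in set-25, against 1930, 1910 and 1350 CPM in N2, with 2 of 6 tested fallen. The 6 neuron markers, dominated by snb-1 and unc-119, summed to 136, 123 and 156 CPM in set-25, against 360, 330 and 388 CPM in N2, with 3 risen and 2 fallen. What part the stage of the embryos has in the changed genes was not tested. Yolk genes of the adult summed to 0.478 to 1.14 CPM in set-25 and 0.575 to 2.05 CPM in N2. Of 36 sperm genes 21 had no count in any of the 6 libraries and none reached the test, and the 4 larval markers summed to 0.438 to 0.704 CPM in set-25 and 0.246 to 0.435 CPM in N2.

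**Figure D3:**
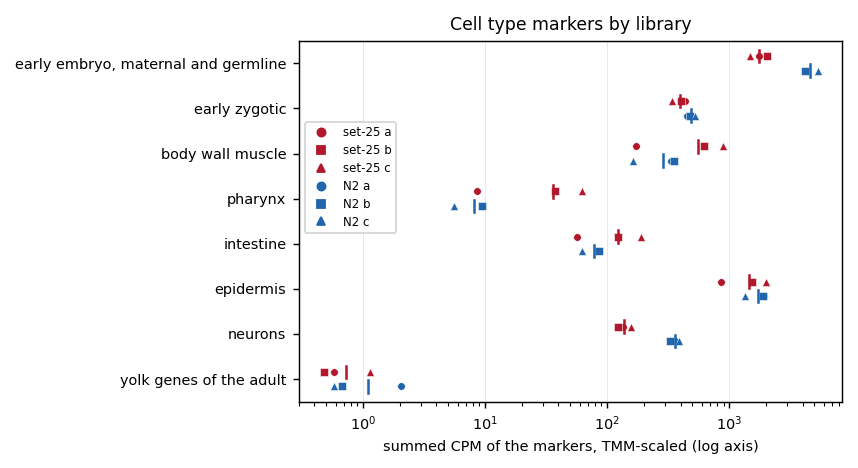
Summed CPM (log axis) of the markers of each stage or cell type in the 3 set-25 libraries (red) and the 3 N2 libraries (blue), with bars at group means. Maternal sums are lower in every set-25 library, and among the set-25 libraries the muscle, pharynx and intestine sums are lowest in a and highest in c.

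Several expanded gene families rose in part. Transthyretin-related genes, small secreted proteins, rose in 16 of 25 and fell in 1, with a median of 1.92. ttr-37 had 3.97, 5.86 and 8.93 CPM in set-25, against 0.166, 0.402 and 0.0548 CPM in N2 (4.89, SE 0.66, adjusted p = 0.00276), and ttr-46 had 0.81, 2.75 and 6.28 CPM in set-25, against 0.0414, 0.0268 and 0 CPM in N2 (6.85, SE 0.86, adjusted p = 0.0044). The exception was ttr-53, at 62.4, 42 and 48.1 CPM in set-25 and 64.5, 91.1 and 83.8 CPM in N2 (-0.65, SE 0.22, adjusted p = 0.0393). Ground-like, fungus-induced and antimicrobial genes rose in 13 of 21 and fell in 1, with a median of 2.19, and 20 rose without set-25 library a. lys-1, a lysozyme, had 1.12, 2.47 and 3.95 CPM in set-25, against 0.228, 0.322 and 0.219 CPM in N2 (3.27, SE 0.53, adjusted p = 0.00555), and spp-5, a saposin-like pore former, had 2.74, 7.21 and 13.6 CPM in set-25, against 0.331, 0.51 and 0.0821 CPM in N2 (4.64, SE 0.89, adjusted p = 0.00607). spp-10, the 1 that fell, had 30.8, 30.7 and 30.3 CPM in set-25 and 54.6, 47.4 and 43.9 CPM in N2 (-0.67, SE 0.09, adjusted p = 0.00988). fip-6 had counts of 16, 58 and 62 in set-25 and 0 in each N2 library, which is at least 79.7-fold higher against a floor of 3 counts over the N2 group. dbd-3, with 16, 86 and 129 counts in set-25 and 0 in N2, was at least 135-fold higher by the same floor. Both genes passed the filter on low counts through set-25 alone, so their calls are no result, and these bounds cover counting error only. Aspartyl and cysteine proteases rose in 9 of 16 and fell in none, with a median of 1.77, asp-5 (5.66) and asp-3 (4.41) among them. The calls of ttr-37, ttr-46, lys-1, spp-5 and asp-5, which could pass that filter only through set-25, are no result either.

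Some enzymes of detoxification rose, where 14.5% of all genes did. Cytochrome P450 genes rose in 16 of 45 and fell in 1, cyp-31A5 (-0.75), with a median of 0.74, and 10 rose without set-25 library b. cyp-35A3, a fat-storage and xenobiotic-response gene, had 1.85, 3.67 and 6.06 CPM in set-25, against 0.124, 0.107 and 0.0548 CPM in N2 (5.25, SE 0.53, adjusted p = 0.00165). UDP-glucuronosyltransferases rose in 9 of 51 (17.6%) and fell in none (15, 4 and 6 without set-25 libraries a, b and c). ugt-25 had 25, 24.3 and 24.5 CPM in set-25, against 14.1, 14.1 and 11.9 CPM in N2 (0.88, SE 0.08, adjusted p = 0.00731), with little spread among the set-25 libraries. Glutathione S-transferases rose in 6 of 31 (19.4%), both shares near that of all genes, and fell in 3: gst-16 (-1.29), gst-44 (-1.0) and gst-1 (-0.93). C-type lectins rose in 14 of 54 and fell in 7, and 35 rose without set-25 library a. clec-31, at 0.386, 0.359 and 0.596 CPM in set-25 and 0.0207, 0.0268 and 0.0274 CPM in N2, rose by 3.96 (SE 0.2, adjusted p = 0.00241) in log2, and clec-90, at 2.2, 2.95 and 2.38 CPM in set-25 and 14.2, 9.5 and 12.15 CPM in N2, fell (-2.25, SE 0.21, adjusted p = 0.00177). cyp-35A3 and clec-31 could pass the filter on low counts only through set-25, so their calls are no result. Medians were 0.36 for the glucuronosyltransferases, 0.02 for the glutathione S-transferases and 0.35 for the lectins.

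Large families of regulators differed in their counts. Nuclear hormone receptor genes rose in 26 of 189 (13.8%) and fell in 11 (5.82%), with a median of 0.28, and 51, 12 and 11 rose without set-25 libraries a, b and c. With library totals alone 64 rose and 4 fell. F-box A genes rose in 22 of 96 and fell in none, with a median of 0.48, and 35, 10 and 20 rose without set-25 libraries a, b and c. Library totals gave 43 rises among them. fbxa-67 had 10.5, 9.53 and 9.2 CPM in set-25, against 3.31, 3.78 and 3.26 CPM in N2 (1.49, SE 0.09, adjusted p = 0.00362), and fbxa-136 had 3.9, 6.54 and 6.71 CPM in set-25, against 0.932, 0.993 and 0.657 CPM in N2 (2.72, SE 0.31, adjusted p = 0.00233). The set-25 libraries differed little from each other in fbxa-67 and clearly lay above N2 in both. F-box B and C genes, by contrast, rose in 5 of 151 (3.31%) and fell in 18 (11.9%), below the shares of all genes, with a median of -0.04. Without set-25 libraries a, b and c 46, 8 and 8 fell. With library totals alone 14 of them rose and 7 fell. Genes with MATH or BTB domains rose in 18 of 72 and fell in 9 (median 0.32), with 11 rises and 3 falls without set-25 library b. bath-20 had 0.656, 0.518 and 0.541 CPM in set-25, against 0.0414, 0.0805 and 0.0821 CPM in N2 (3.04, SE 0.18, adjusted p = 0.00331), a low level in both groups. It could pass the filter on low counts only through set-25, so its call is no result. Chemoreceptor genes rose in 13 of 142 tested (9.15%) and fell in 15 (10.6%), below the shares of all genes. Library totals gave 26 and 10, and leaving out set-25 library a gave 30 and 29. Of 1688 chemoreceptor genes in all, most had too few counts for a test. Many of these families are clusters of near-identical copies, and counts between copies may be split.

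Small heat shock proteins rose in 7 of 9 (77.8%, where 14.5% of all genes rose) and fell in 1, with a median of 1.81. Only 2 of these calls held in all 6 leave-one-out fits, and 5 rose without set-25 library b or c. sip-1, the small heat shock protein of oocytes and embryos, was the exception and much the most abundant, at 195, 344 and 207 CPM in set-25, against 1866, 1538 and 2316 CPM in N2 (-2.94, SE 0.31, adjusted p = 0.00105). hsp-43 had 1.39, 2.19 and 3.9 CPM in set-25, against 0.373, 0.322 and 0.0274 CPM in N2 (3.31, SE 0.84, adjusted p = 0.0147), and hsp-12.1 had 10.9, 13.6 and 26.8 CPM in set-25, against 5.2, 5.12 and 1.4 CPM in N2 (2.12, SE 0.73, adjusted p = 0.0254). hsp-43 could pass the filter on low counts only through set-25, so its call is no result. Of 29 other chaperone and stress-response genes 3 rose (10.3%) and 8 fell (27.6%), which became 7 and 6 under library totals. hsp-6, the mitochondrial Hsp70, had 132, 202 and 195 CPM in set-25, against 424, 423 and 492 CPM in N2 (-1.34, SE 0.21, adjusted p = 0.00303), and hsf-1, the heat shock factor, had 81.9, 97.9 and 97 CPM in set-25, against 163, 148 and 174 CPM in N2 (-0.81, SE 0.11, adjusted p = 0.00425). The 3 that rose, hsp-70 (1.1), hsp-90 (0.46) and gst-4 (1.92), were each called in only 1 or 2 of the leave-one-out fits.

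A small number of genes rose to the same degree in each set-25 library. They were picked after their values were seen: among genes of at least 1 CPM that rose at least 2-fold, 65 of 1106 (5.88%) had set-25 libraries within 1.5-fold of each other. K10D3.6 (chromosome I, 7116329 to 7116655) had 52.5, 42.1 and 43.1 CPM in set-25, against 3.33, 2.95 and 3.23 CPM in N2 (3.85, SE 0.11, adjusted p = 0.0003). eppl-1, which encodes a predicted phospho-lyase of ethanolamine phosphate (T01B11.2, chromosome IV, 8449353 to 8451759), had 139, 163 and 195 CPM in set-25, against 15.9, 15.8 and 16.3 CPM in N2 (3.37, SE 0.14, adjusted p = 0.0003). argn-1, an arginase (chromosome X, 5630023 to 5631825), had 53.6, 47.2 and 56.1 CPM in set-25, against 14.8, 13.8 and 13.6 CPM in N2 (1.89, SE 0.08, adjusted p = 0.000562). Every set-25 library was over 3 times the highest N2 library in these 3 genes, and library a was not the lowest for K10D3.6 or argn-1. F40D4.13 had 3.82, 3.79 and 4.11 CPM in set-25, against 0.642, 0.537 and 0.63 CPM in N2 (2.69, SE 0.08, adjusted p = 0.00119), and T03F1.6 had 41.6, 60.5 and 52 CPM in set-25, against 16.3, 16.9 and 16.6 CPM in N2 (1.63, SE 0.16, adjusted p = 0.00119). The vesicular transporter-like gene slc-17.5 (1.87), the peroxisomal membrane protein gene pxmp-4 (1.52) and ugt-9 (1.29) were others. rnh-1.3, an RNase H that degrades the RNA of RNA:DNA hybrids, had 3.28, 2.35 and 2.27 CPM in set-25, against 1.12, 1.05 and 0.986 CPM in N2 (1.33, SE 0.17, adjusted p = 0.0148).

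Regulators supplied by the mother were lower in set-25 embryos. The early embryo inherits these RNAs from the oocyte and destroys many of them as its own genome becomes active. A list of maternal RNA regulators holds PUF, KH and RRM proteins and others, such as car-1 and cgh-1. Its genes fell in 24 of 28 and rose in none, with a median log2 change of -1.17. car-1, a germline RNA granule protein, had 39, 64.4 and 41.5 CPM in set-25, against 295, 286 and 384 CPM in N2 (-2.73, SE 0.26, adjusted p = 0.000754). gld-1, a translational repressor of the germline, had 51.6, 83.9 and 59.9 CPM in set-25, against 255, 255 and 367 CPM in N2 (-2.17, SE 0.27, adjusted p = 0.00133), and cgh-1, an RNA helicase of the same granules, had 163, 244 and 164 CPM in set-25, against 627, 672 and 801 CPM in N2 (-1.88, SE 0.22, adjusted p = 0.00133). The set-25 libraries were all low and did not overlap N2, with library b the highest of the 3 in each. Maternal CCCH zinc finger genes, which set cell fates in the first divisions, fell in 9 of 11 and rose in none, with a median of -1.47. pie-1, which represses transcription in germline blastomeres, had 19.6, 24.1 and 16 CPM in set-25, against 95.8, 77.5 and 116 CPM in N2 (-2.28, SE 0.24, adjusted p = 0.001). mex-5 had 82.5, 125 and 77.3 CPM in set-25, against 389.8, 411 and 569.6 CPM in N2 (-2.27, SE 0.28, adjusted p = 0.00126), and oma-1, of the oocyte, had 55.7, 69.7 and 39.95 CPM in set-25, against 181, 176 and 223 CPM in N2 (-1.81, SE 0.26, adjusted p = 0.00197). The highest set-25 library was below the lowest N2 library in all 3.

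Other maternal groups fell less widely. Eggshell and egg activation genes fell in 9 of 16 (median -0.73), PAR polarity genes in 6 of 11 (median -0.52) and P granule components in 4 of 15 (median -0.20), with no rise in any. egg-1, a sperm-binding receptor of the egg, had 21.1, 17 and 17.6 CPM in set-25, against 37.9, 40.1 and 41.6 CPM in N2 (-1.1, SE 0.1, adjusted p = 0.00261). par-6 had 38.9, 47.1 and 49.2 CPM in set-25, against 117, 97.6 and 131 CPM in N2 (-1.35, SE 0.16, adjusted p = 0.00177), and deps-1, of P granules, had 52.6, 69.8 and 52.7 CPM in set-25, against 143, 149.7 and 166 CPM in N2 (-1.39, SE 0.15, adjusted p = 0.00133). Of the core P granule genes, pgl-1 had 142, 174 and 146 CPM in set-25 and 103.9, 131 and 133 CPM in N2, and glh-1 had 58.8, 82.6 and 59.6 CPM in set-25 and 49.6, 64.2 and 74 CPM in N2. Neither was called, and the groups overlapped for glh-1. Argonautes fell in 9 of 17 and nuclear RNAi genes in 8 of 28, with medians of -0.46 and -0.14, and none rose. hrde-1, the germline nuclear Argonaute, had 233, 268 and 195 CPM in set-25, against 401, 415 and 496 CPM in N2 (-0.91, SE 0.16, adjusted p = 0.00666), and alg-2, a miRNA Argonaute, had 159, 277 and 227 CPM in set-25, against 555, 544 and 637 CPM in N2 (-1.39, SE 0.24, adjusted p = 0.00432). Without set-25 library a 12 nuclear RNAi genes fell and 4 rose, without c 4 fell, and under library totals 7 rose and 3 fell.

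Several regulators of actin were lower in set-25 embryos. Regulators of the WASP, WAVE and Arp2/3 actin machinery fell in 13 of 22 and rose in none, with a median of -0.65. wip-1, the WASP-interacting protein, had 3.2, 4.7 and 4.93 CPM in set-25, against 44.3, 39.7 and 57.8 CPM in N2 (-3.47, SE 0.25, adjusted p = 0.000562). pfn-1, a profilin, had 33.5, 50.3 and 34.4 CPM in set-25, against 204, 186 and 262 CPM in N2 (-2.46, SE 0.24, adjusted p = 0.000754), and arx-6, an Arp2/3 subunit, had 27.3, 18.9 and 18.8 CPM in set-25, against 103, 88.8 and 95.2 CPM in N2 (-2.14, SE 0.19, adjusted p = 0.000738). Each of the 3 was at least 3 times lower in the highest set-25 library than in the lowest N2 library. Other genes with the widest falls belong to no list here. rab-11.1, the GTPase of recycling endosomes, had 60.4, 79.2 and 66.1 CPM in set-25, against 382, 359 and 378 CPM in N2 (-2.44, SE 0.12, adjusted p = 0.00035). yop-1, which shapes the endoplasmic reticulum, had 23.8, 31 and 26.1 CPM in set-25, against 251, 178 and 268 CPM in N2 (-3.11, SE 0.21, adjusted p = 0.000382). The set-25 libraries lay close together in these genes. The ubiquitin-conjugating enzyme gene ubc-13 (-2.78), the translocon gene trap-3 (-2.63), the prolyl isomerase gene fkb-2 (-2.67), the cytokinesis gene cyk-7 (-2.58), pqn-82 (-2.66) and serp-1.1 (-2.75) belonged to the same group of widest falls. Of the genes without a symbol the widest were Y39B6A.42 (-3.78) and W05F2.3 (-3.46) downward, and C50D2.1 (8.8) and F41F3.3 (8.21) upward, and spia-1 rose by 6.49 in log2. C50D2.1 and spia-1 could pass the filter on low counts only through set-25, so their calls are no result. Innexin genes, of gap junctions, rose in 9 of 22 and fell in 1, inx-22 of the gonad (-0.87), but 1 rose without set-25 library b and 4 without c.

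Chromatin genes fell in part. Histone genes fell in 18 of the 35 tested, of 72 in the table, and rose in none, with a median of -1.11. his-62 had 277, 246 and 188 CPM in set-25, against 1102, 1089 and 1127 CPM in N2 (-2.22, SE 0.17, adjusted p = 0.000671), and his-74 had 28.4, 17.9 and 13.9 CPM in set-25, against 124, 105 and 127 CPM in N2 (-2.56, SE 0.31, adjusted p = 0.0012). his-17 (-3.19) and his-48 (-3.23) were among the widest falls. Histone genes are near-identical copies, so single members are uncertain, but the 3 set-25 libraries were below N2 in his-62 and his-74. Of the 10 tested H3K9 methyltransferases and SET-domain relatives, set-25 itself, set-21 (-0.58) and lin-65, the partner of MET-2 (-0.65), fell and none rose. Readers of heterochromatin fell in 3 of 11 with a median of -0.09. mrg-1, a chromodomain protein, had 183, 183 and 172 CPM in set-25, against 433, 487 and 509 CPM in N2 (-1.41, SE 0.08, adjusted p = 0.000682). hpl-1, of the HP1 family, had 21.8, 22.6 and 23.3 CPM in set-25, against 40.4, 45 and 45.9 CPM in N2 (-0.96, SE 0.06, adjusted p = 0.00264), and cec-3 fell too (-0.55). cec-4, the reader that anchors H3K9-methylated chromatin at the nuclear envelope, had 477, 344 and 314 CPM in set-25 and 379, 310.3 and 365 CPM in N2 (log2 change 0.11, SE 0.2, adjusted p = 0.681), and hpl-2 had 184, 142 and 137 CPM in set-25 and 153, 168 and 172 CPM in N2 (log2 change -0.09, SE 0.14, adjusted p = 0.652). Neither was past the threshold. The deacetylase gene hda-1 fell (-1.17) and hda-2 rose (0.39) among 11 genes of NuRD-type complexes, 9.09% each way and below the shares of all genes. Of 5 genes of PRC2 and H3K36 methylation met-1 fell (-0.86). None of 12 lysine demethylases was called by edgeR, where 1 had an unadjusted p under 0.05 (a fall), limma voom and DESeq2 each called 1 fall, and 2 rose under library totals. Genes of the nuclear lamina and envelope fell in 5 of 11, 9 without set-25 library a, and emr-1, the emerin, had 120.2, 89.4 and 74.5 CPM in set-25, against 228, 254 and 267 CPM in N2 (-1.4, SE 0.21, adjusted p = 0.00276). Nuclear pore genes fell in 8 of 26 and none rose, but 4 rose and 4 fell under library totals.

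**Figure D4:**
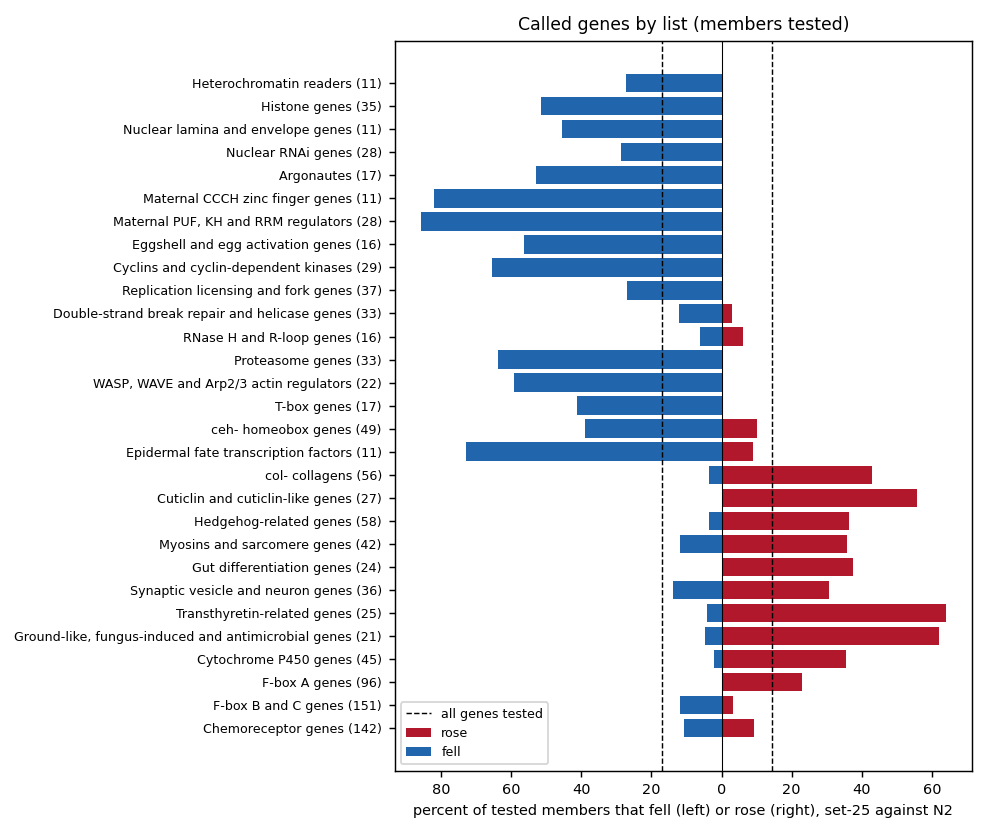
Percent of the tested members of 29 gene lists (number tested in brackets) that fell (bars to the left) or rose (bars to the right) in set-25 embryos against N2 embryos. Dashed lines mark the 16.9% and 14.5% of all genes tested; maternal, cyclin and proteasome lists extend left of them, and cuticle, transthyretin-related and antimicrobial lists extend right.

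Among genes of division and genome maintenance the counts of falls differed by list. Cyclins and cyclin-dependent kinases fell in 19 of 29, with a median of -0.62. cyd-1, the D-type cyclin, had 41.5, 52.7 and 50.3 CPM in set-25, against 150.5, 140.3 and 158 CPM in N2 (-1.64, SE 0.12, adjusted p = 0.000671), and cyb-3, a mitotic cyclin, had 635, 804 and 606 CPM in set-25, against 2056, 1706 and 2503 CPM in N2 (-1.62, SE 0.2, adjusted p = 0.00233). Replication genes fell in 10 of 37 (median -0.20), 19 without set-25 library a, but 5 rose and 6 fell under library totals. pcn-1, the replication clamp, had 277, 249 and 229 CPM in set-25, against 809.7, 715 and 932 CPM in N2 (-1.7, SE 0.14, adjusted p = 0.000798), and the helicase subunit gene mcm-7 had 449.6, 644 and 459 CPM in set-25, against 1354, 1223 and 1551 CPM in N2 (-1.41, SE 0.19, adjusted p = 0.00303). The groups were well apart in these 4 genes. Mitosis and kinetochore genes fell in 11 of 51 (21.6%, where 16.9% of all genes fell) and mdf-1 rose (0.44). Under library totals 7 of them rose and 6 fell, and 19 fell without set-25 library a. Of 33 genes of double-strand break repair 4 fell and 1 rose, and 8 fell without set-25 library a. brc-1, the worm BRCA1, had 35.5, 53.4 and 49.4 CPM in set-25, against 75.7, 79.5 and 85.1 CPM in N2 (-0.8, SE 0.19, adjusted p = 0.013), and held in all 6 leave-one-out fits. com-1 (-0.52), dog-1 (-0.45), msh-2 (-0.46) and, upward, rip-1 (1.07) held in 0 to 4 of them. Of 13 checkpoint genes chk-2 (-1.03), mrt-2 (-0.64) and tipn-1 (-0.37) fell, 23.1% of them, each in 1 or 2 of those fits. Of 16 genes of RNase H and R-loops, rnh-1.3 rose and aly-2 fell (-0.52), 6.25% each way and below the shares of all genes. Under library totals 6 repair, 3 checkpoint and 5 R-loop genes rose and 1, 0 and 0 fell. Cell death and corpse clearance genes fell in 6 of 23 (26.1%), and ced-12 (0.46) and nuc-1 (0.51) rose (8.7%), with 6 rises and 4 falls under library totals.

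Among regulators of early zygotic patterning some members of each list fell and most did not pass the test. Early zygotic genes fell in 9 of 27, with a median of -0.69, and 1 rose, sdz-26 (0.51); without set-25 library b 5 fell. sdz-20, an early target of SKN-1, had 0.463, 0.399 and 0.325 CPM in set-25, against 3.52, 2.92 and 3.59 CPM in N2 (-3.06, SE 0.16, adjusted p = 0.00119), and pes-1, a forkhead factor, had 10.3, 10.004 and 8.34 CPM in set-25, against 31.4, 26.2 and 34.7 CPM in N2 (-1.68, SE 0.15, adjusted p = 0.00136). pes-10, transcribed at the onset of zygotic expression, was not called, at 302, 284 and 242 CPM in set-25 and 238, 270.4 and 285 CPM in N2. Notch pathway genes fell in 8 of 22 and T-box genes in 7 of 17, with medians of -0.79 and -0.67 and no rise, and without set-25 library a 13 and 12 fell. ref-1, a direct Notch target of the embryo, had 23.3, 27.3 and 25.34 CPM in set-25, against 89.5, 72.5 and 95.2 CPM in N2 (-1.76, SE 0.14, adjusted p = 0.000689). sygl-1, a Notch target of germline stem cells, had 1.08, 2.35 and 1.19 CPM in set-25, against 16.9, 13.2 and 17.7 CPM in N2 (-3.36, SE 0.36, adjusted p = 0.00133), and tbx-38 had 20.7, 20.4 and 15.8 CPM in set-25, against 41.2, 40.2 and 48.9 CPM in N2 (-1.19, SE 0.15, adjusted p = 0.0031). Homeobox genes of the ceh- class fell in 19 of 49 and rose in 5 (median -0.29), and Hox and posterior homeobox genes fell in 4 of 8. ceh-36 had 23.8, 22 and 22.6 CPM in set-25, against 70.1, 52.5 and 63.5 CPM in N2 (-1.44, SE 0.13, adjusted p = 0.00116), and ceh-13, the anterior Hox gene, had 65.8, 45.7 and 56.3 CPM in set-25, against 109.9, 100.2 and 118 CPM in N2 (-0.97, SE 0.17, adjusted p = 0.00555). Among 29 Wnt genes 10 fell and 2 rose, and the 2 were the ligands cwn-1 (0.67) and cwn-2 (0.69), where mom-2, the ligand of early blastomeres, fell (-0.92). Under library totals the ceh- genes came to 10 each way and the Wnt genes to 5 each way. Dosage compensation and sex determination genes fell in 10 of 22 and none rose (median -0.38), with 5 rises and 7 falls under library totals. The X-linked signal genes sex-1 (-0.78) and fox-1 (-1.12) and the male-fate gene her-1 (-1.41) were among them.

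Housekeeping complexes fell to differing extents. Proteasome genes fell in 21 of 33 with a median of -0.62 (13 without set-25 library b), V-ATPase genes in 12 of 20 with 2 rises, and cytosolic ribosomal protein genes in 29 of 80 with 1 rise and a median of -0.28 (11 rises and 17 falls under library totals). pbs-1, a catalytic-core subunit gene, had 104.03, 127 and 106 CPM in set-25, against 352, 331 and 413 CPM in N2 (-1.7, SE 0.13, adjusted p = 0.000671), and vha-2 had 119.7, 134 and 148 CPM in set-25, against 354, 351 and 396 CPM in N2 (-1.45, SE 0.11, adjusted p = 0.000754). The V-ATPase genes that rose were vha-5, of the epidermis, at 10.3, 25.4 and 50.9 CPM in set-25, against 1.68, 2.39 and 0.712 CPM in N2 (4.17, SE 0.83, adjusted p = 0.00561), and vha-6, of the intestine (2.79). rpl-27 was the ribosomal protein gene that rose (0.72), and rpl-20 had 38.9, 54.2 and 62.2 CPM in set-25, against 209, 193 and 193 CPM in N2 (-1.94, SE 0.2, adjusted p = 0.000995). Chaperonin cct genes fell in 4 of 8. Mitochondrial ribosomal protein genes rose in 6 of 70 (8.57%) and fell in 8 (11.4%), below the shares of all genes, with a median of 0.03. The counts became 17 and 2 under library totals and 8 and 20 without set-25 library a. Tubulins showed both directions: the early embryonic genes tba-1, tba-2, tbb-1 and tbb-2 fell (-0.85, -0.76, -1.1 and -1.07), and tba-5, tba-6 and tba-7 rose (3.82, 2.13 and 2.07). tba-5 could pass the filter on low counts only through set-25, so its call is no result. The tubulin genes are alike in sequence, so counts may be split, and under library totals 7 rose and 3 fell. Skp1-related and cullin genes fell in 3 of 23, skr-1 (-1.19), skr-2 (-1.41) and skr-18 (-1.33), and cul-4 rose (0.37). These are 13% and 4.35%, below the shares of all genes, and 10 fell without set-25 library a. Sperm gene families, tested in 18 of 118, held 1 rise, spe-36 (0.88), and 1 fall, spe-48 (-0.72), 5.56% each way and also below those shares. The 1 vitellogenin gene tested was not called.

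How far the calls in a list rest on single libraries varied. Calls that held in all 6 leave-one-out fits, N2 libraries included, numbered 16 of 18 for histones and 13 of 14 for V-ATPase genes. They came to 17 of 24 for the PUF, KH, RRM and other maternal RNA regulators and 7 of 9 for CCCH genes. For cyclins they were 11 of 19, for the proteasome 9 of 21 and for the actin regulators 7 of 13. They numbered 12 of 26 for col- collagens, 7 of 15 for cuticlins, 8 of 23 for hedgehog-related genes, 8 of 20 for sarcomere genes, 2 of 9 for gut genes, 5 of 16 for neuronal genes, 7 of 17 for transthyretin-related genes, 4 of 17 for P450 genes and 3 of 22 for F-box A genes. Counts of lists that moved over 1.5 times with 1 library include falls of 7 glutathione S-transferase and 8 F-box A genes without set-25 library a, and 3 lectin falls and 1 ceh- rise without b. They also include checkpoint falls of 5, 0 and 1 and tubulin rises of 7, 1 and 2 without set-25 libraries a, b and c. In lists where edgeR called no rise, 0 or 1 member rose at an unadjusted p under 0.05, 0 to 3 by limma voom and 0 or 1 by DESeq2. In lists where it called no fall the same counts were 0 to 2, 0 to 10 and 0 to 2.

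Genes that make short structural RNAs were tested as well. They were looked at by annotated biotype after their values were seen. Of 25 tested snRNA genes 7 fell (28%), with a median of -1.47, and of 23 tRNA genes 7 fell (30.4%) and 2 rose (8.7%). Of 101 snoRNA genes 15 fell (14.9%) and 9 rose (8.91%), both below the 16.9% and 14.5% of all genes. The snoRNA gene Y38F2AR.14 had 706, 445 and 324 CPM in set-25, against 188, 191 and 150.2 CPM in N2 (1.48, SE 0.34, adjusted p = 0.00897), and T24H7.6 had 25, 20.6 and 14.8 CPM in set-25, against 157, 58.7 and 40.4 CPM in N2 (-2.08, SE 0.62, adjusted p = 0.0191). The tRNA gene K02E11.t1 had 0 counts in each set-25 library, against 148, 31 and 22 counts in N2 libraries a, b and c, at least 38.1-fold lower by the floor of 3 counts over the set-25 group. N2 library a was the highest of the N2 libraries for T24H7.6 and K02E11.t1, several times above c. The large ribosomal RNA gene rrn-3.1 fell (-1.51, SE 0.35, adjusted p = 0.0156), at 7528, 10662 and 10479 CPM in set-25 and 20188, 39988 and 21534 CPM in N2, in libraries depleted of that RNA. Pseudogenes rose in 46 of 394 tested (11.7%) and fell in 18 (4.57%), also below the shares of all genes.

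Genes with no count in wild type had few counts in the mutant. Of all genes, 61 had no count in any N2 library and at least 1 in each set-25 library, with a median of 10 counts summed over set-25, and 4 of them passed the filter, through set-25 alone, so their calls are no result: dbd-3, fip-6, F41G3.21 (at least 50.4-fold higher) and C02E7.7 (at least 47.4-fold higher). In the other direction 144 genes had no set-25 count and at least 1 in each N2 library, of which K02E11.t1 passed the filter and was called. The set-25 libraries are the shallower ones. By wild-type level, in bins set on N2 values that also enter the test, 891 of 2537 genes between 0.1 and 1 CPM in N2 rose (35.1%) and 32 fell. Between 100 and 1000 CPM, 52 of 2832 rose (1.84%) and 960 fell (33.9%). Genes below 0.1 CPM in N2 could pass the filter only through set-25, so their 166 rises of 168 are no result. Genes in the low part of the bin from 0.1 to 1 CPM could as well, so the filter sets part of its 35.1%. By chromosome, rises were called in 19% of the genes tested on V, 17.1% on X, 16.6% on IV, 14.6% on II, 10.4% on I and 10.2% on III. On the autosomes, the arms, where H3K9 methylation is richest, had 12.4% risen and 18% fallen of 6395 genes. The centres had 16.9% risen and 15.4% fallen of 4412.

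Repeat families are groups of repeated elements whose reads the authors counted together. Of 243 families tested of 392, 8 (3.29%) rose and 24 (9.88%) fell, with a median log2 change of -0.15. Scaling by library totals gave 18 rises and 19 falls, 48.6% of calls upward against 25% here, and a median of 0.14, and without set-25 library a 17 rose. The simple repeats, short units in tandem, are shown by their units because they held the largest falls. GGGAA repeats had 0.154, 0.239 and 0.271 CPM in set-25, against 3.04, 1.37 and 2.14 CPM in N2 (log2 change -3.31, SE 0.37, adjusted p = 0.000702). CAG repeats had 3.82, 5.1 and 4.49 CPM in set-25, against 35.7, 27.7 and 42.1 CPM in N2 (log2 change -2.97, SE 0.21, adjusted p = 3.03e-05). The N2 libraries were 5 times or more above the set-25 libraries in both. GA repeats had 20.7, 27.4 and 21.4 CPM in set-25, against 121, 127 and 154 CPM in N2 (-2.53, SE 0.17, adjusted p = 3.03e-05), and TC repeats, the same repeat read on the other strand, had 43, 56.1 and 54.5 CPM in set-25, against 296, 198 and 300.2 CPM in N2 (-2.37, SE 0.23, adjusted p = 4.14e-05). GA-rich low-complexity sequence fell with them, at 61.9, 74.3 and 81.9 CPM in set-25, against 250.1, 217 and 268 CPM in N2 (-1.75, SE 0.15, adjusted p = 6.38e-05), and AATTG repeats fell by 2.02 on the log2 scale. Such short units also lie inside genes and their introns, and which transcripts gave these reads was not tested. Upward, TAG repeats had 1.54, 2.43 and 3.03 CPM in set-25, against 0.476, 0.349 and 0.301 CPM in N2 (2.6, SE 0.33, adjusted p = 0.000844), and CAATC (1.82, SE 0.27, adjusted p = 0.00312) and AAATG repeats (2.13, SE 0.55, adjusted p = 0.0161) rose. AAATG repeats could pass the filter on low counts only through set-25, so their call is no result. Repeats of TTAGGC, the telomere unit, were not called, at 21.3, 39.2 and 37.1 CPM in set-25 and 27.8, 41.6 and 34.3 CPM in N2 (-0.09, SE 0.33, adjusted p = 0.87), and the groups overlapped.

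Transposon families changed in both directions, and few were called. LTR retrotransposons rose in 3 and fell in 3 of 36. CER3-I, the internal part of Cer3, had 7.6, 10.8 and 10.3 CPM in set-25, against 2.63, 2.41 and 3.34 CPM in N2 (1.77, SE 0.21, adjusted p = 0.000844), and CER10-I had 3.2, 6.62 and 4.87 CPM in set-25, against 1.3, 1.45 and 1.62 CPM in N2 (1.75, SE 0.31, adjusted p = 0.0046). CER17-LTR rose (0.82, SE 0.21, adjusted p = 0.0333) in only 2 of the 6 leave-one-out fits. Cer7 fell in both its parts: CER7-LTR had 8.52, 7.29 and 7.53 CPM in set-25, against 28.7, 23.4 and 26.3 CPM in N2 (-1.75, SE 0.11, adjusted p = 0.000206), and CER7-I fell by 1.13 on the log2 scale. CER16-I, at 0.116, 0.279 and 0.0541 CPM in set-25 and 1.14, 0.805 and 1.18 CPM in N2, fell as well (-2.7, SE 0.48, adjusted p = 0.00461). Of 70 families of DNA transposons and palindromes 2 rose and 3 fell. CEMUDR1, of the Mutator-like elements, had 127, 149 and 135 CPM in set-25, against 83, 81.6 and 82 CPM in N2 (0.74, SE 0.07, adjusted p = 0.00633), with all 3 set-25 libraries within a narrow range above N2. TIR43YW1 rose (1.2, SE 0.32, adjusted p = 0.0127) with library a the highest, and IR4, PALNN1 and PAL8D fell by 1.45, 1.29 and 0.84 on the log2 scale. Tc1, the most studied worm transposon, was not called, at 11.4, 17.2 and 15.3 CPM in set-25 and 12.8, 12.18 and 16 CPM in N2.

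Few families of the remaining classes were called. Among 7 Helitron families HelitronY1A fell, at 89, 119.6 and 125 CPM in set-25, against 212, 210 and 225 CPM in N2 (-0.95, SE 0.16, adjusted p = 0.00383). Among 11 non-LTR families LINE2D fell (-1.05, SE 0.15, adjusted p = 0.00586), and among 9 satellites and other tandem families RC35 fell (-1.44, SE 0.2, adjusted p = 0.00461). The satellite MINISAT1 was not called, with 52.7, 84.1 and 94.5 CPM in set-25 and 88.7, 102 and 92.4 CPM in N2 (-0.29, SE 0.26, adjusted p = 0.489). None of 30 CELE, CeRep and CERP families was called by edgeR, where 5 had an unadjusted p under 0.05 and DESeq2 called 4, all falls. All repeat families together came to 1.11, 1.17 and 1.1% of the gene counts in set-25, against 1.18, 1.35 and 1.16% in N2, a mean of 1.13 ± 0.038% in set-25 and 1.23 ± 0.104% in N2 (SD, n = 3 each). An exact two-sided permutation test gave p = 0.2, where 3 against 3 libraries can give no less than 0.1. CELE45 alone took 52.2, 48.6 and 31.9% of the repeat counts in set-25 and 46.3, 54.5 and 46.1% in N2. Without it, a view added after the data were seen, the shares were 0.532, 0.600 and 0.752% in set-25 and 0.634, 0.613 and 0.627% in N2, and the groups overlapped.

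**Figure D5:**
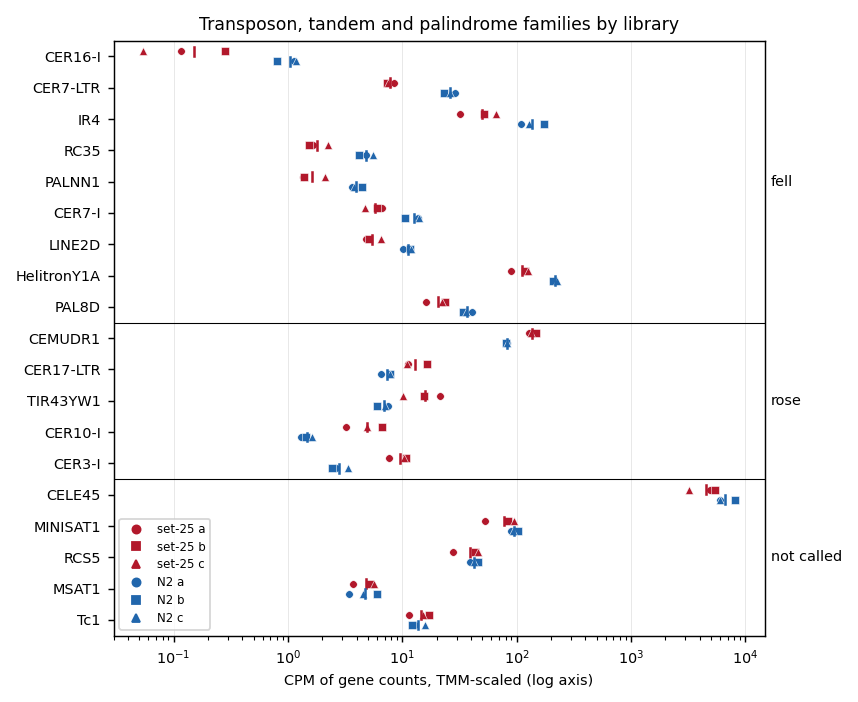
CPM of gene counts (log axis) of transposon, tandem and palindrome families in the 3 set-25 libraries (red) and the 3 N2 libraries (blue), with bars at group means, for families that fell, families that rose and, below, some families picked by name that were not called. CEMUDR1 and CER7-LTR show set-25 libraries close together and clear of N2, and CELE45 is the most abundant family in all 6.

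The set-25 libraries were also compared with those of the double mutant, labelled as carrying met-2(n4256) beside set-25(n5021). Of 13084 genes tested, 1630 (12.5%) were higher and 2282 (17.4%) lower in set-25 than in the double mutant, whose libraries were sequenced as deeply as N2. mex-5 had 84.5, 123 and 75 CPM in set-25, against 386, 440.3 and 476 CPM in the double mutant, on the scale of all 12 libraries, a log2 difference of -2.18 (adjusted p = 0.000671). wip-1 differed by -3.44 (adjusted p = 0.000147) and rab-11.1 by -2.46 (adjusted p = 0.000119). In these 3 genes every set-25 library lay below every library of the double mutant. col-74 had 16.9, 168 and 303 CPM in set-25, against 23.3, 18.6 and 18.2 CPM in the double mutant, a difference of 3.02 (adjusted p = 0.0293), and set-25 library a was below the double mutant while b and c were above it. asp-1 differed by 0.57 (adjusted p = 0.554). CEMUDR1 was lower in set-25, at 130.4, 147 and 131 CPM, than in the double mutant, at 329.7, 344 and 353 CPM (log2 difference -1.31, adjusted p = 2.15e-06). CER10-I was lower as well (-1.01, adjusted p = 0.00636), CER3-I differed by -0.03 (adjusted p = 0.953), and TIR43YW1 was higher (2.11, adjusted p = 0.00427). CAG, GA and TC repeats were lower in set-25 by 2.84, 2.66 and 2.12 on the log2 scale.

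Against the libraries labelled met-2, which share the shallower depth of set-25, 3 of 13402 genes were higher in set-25 (0.0224%) and 0 lower (0.0%), while 3886 had an unadjusted p under 0.05. With all 12 libraries in 1 fit the counts were 1324 higher and 2205 lower, where the spread is estimated over all 4 genotypes. In the libraries labelled met-2, met-2 RNA stood at 214.6, 274.5 and 313 CPM, against 54.3, 51.03 and 52.01 CPM in the double mutant, labelled with the same met-2 allele, and 314, 330.1 and 320.1 CPM in N2, on the scale of all 12 libraries. RNA of set-25 stood there at 77.2, 109.1 and 115 CPM, against 180.8, 185.4 and 218 CPM in N2. The RNA of the gene that their label names was thus nearer to N2 than to the double mutant in all 3 libraries. The 3 genes were the evenly risen eppl-1, K10D3.6 and T03F1.6. eppl-1 had 142, 161 and 189.6 CPM in set-25, against 25.7, 22 and 26.3 CPM in the libraries labelled met-2 and 12.8, 13.8 and 13.4 CPM in the double mutant. Its log2 difference from the libraries labelled met-2 was 2.83 (adjusted p = 0.000373), and those of K10D3.6 and T03F1.6 were 2.86 and 2.14 (adjusted p = 0.00808 for both). In all 3 genes the set-25 libraries stood above every other library of the study. Genes that had risen unevenly were also high in the libraries labelled met-2: col-74 stood at 16.9, 168 and 303 CPM in set-25, against 574.5, 473 and 212.5 CPM there (log2 difference -1.3, adjusted p = 0.254). rab-11.1 stood at 61.8, 78.1 and 64.2 CPM in set-25, against 68.8, 88.3 and 62.3 CPM in the libraries labelled met-2 (log2 difference -0.00, adjusted p = 0.994). A p that misses the threshold does not show that the groups are alike.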

How the data were processed

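The authors deposited tables of raw counts per gene and per repeat family, as whole numbers with no scaling. No source used here gives the aligner, genome build, counter or strand setting. Without a known strand, reads of a gene and of an overlapping antisense gene cannot be told apart. Libraries were made with a TruSeq kit from RNA depleted with Ribo-Zero, per the labels. Columns were assigned to genotypes by name. They carry letters and the sample titles numbers, with nothing to pair them, and the main design therefore has no block. The gene table held 27904 rows, of which 27166 (97.4%) were found by sequence name in the Ensembl annotation of WBcel235, the source of names and positions, and 17270 had a symbol.

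Counts were filtered by edgeR's filter for low counts, scaled by TMM and tested with edgeR 4.0.16 in R 4.3.3, in a quasi-likelihood fit with robust dispersion of the 6 libraries. All tests were two-sided, and calls needed a p under 0.05 after Benjamini-Hochberg adjustment over the whole table. The repeat table had its own fit, scaled by the gene table's library sizes and TMM factors. SE comes from log2 CPM with a prior count of 2. DESeq2 1.42.0, voom of limma 3.58.1 with library weights, other scalings, no filter, libraries thinned to 16929810 counts, a fit of all 12 libraries, a replicate block and leaving out each library were alternatives. The test was also run on simulated data, whose results are not given here. Set tests were not run: the 68 gene lists are described by counts and medians.

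Genes were named by a rule: set-25 and met-2; the 15 widest gaps between groups with a symbol and 2 without in each direction, among called genes of at least 2-fold and 1 CPM; per list up to 5 called members with the widest gap and all called members of a direction with 5 or fewer; and, among repeat families, the 8 widest gaps in each direction. The members, lists and rule were chosen with earlier results of these data known. Bounds and intervals reflect counting error alone. Other names were chosen after their values were seen. Of the genes with the widest falls, 1 is not reported here.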

Additional observations from a re-analysis of the deposited data

How the results depend on the processing

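Of the 341 named genes, all kept their side of the threshold in the fit of all 12 libraries, 335 under DESeq2, 340 under limma voom, 337 under RLE size factors, 310 of 322 after thinning and 297 under library totals, where met-2 became a rise of 0.34. Leaving out N2 library a, b or c lost 96, 69 and 95 of the calls, and leaving out set-25 library a, b or c lost 2, 58 and 39. met-2 turned sign without a filter on low counts (-0.0113) and without set-25 library b (-0.0282), uncalled in both, and reached 0.0884 without library a. Genes called came to 6519 with all 12 libraries (3445 risen) and 6798 with limma voom (3293 risen, 3505 fallen), and library totals gave 3771 risen and 1274 fallen. A replicate block by column letter, which no source supports, gave 2301 genes called with 761 risen and lost 69 named genes; same-letter libraries correlated at -0.474 to -0.017. Leaving out 1 library gave 1796 to 7043 genes called, 532 to 3517 risen and 1189 to 3526 fallen. Repeat families called came to 49 with all 12 libraries (37 fallen), and 17 and 18 rose with the repeat table's own TMM and with library totals. Leaving out 1 library gave 25 to 50 called, 5 to 17 risen and 20 to 35 fallen. The difference in repeat share, set-25 minus N2, was -0.103 percentage points with CELE45 and 0.003 without it. With all 12 libraries 2530 genes were higher than in the double mutant, where 6 gave 1630, and 3529 differed from the libraries labelled met-2 (1324 higher, 2205 lower), where 6 gave 3. The cause of these shifts was not tested. Depth limits what can be said of low genes: 144 genes with counts in every N2 library had none in set-25.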
